A study of Mus musculus with 6 samples.

Results

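CDK inhibitors and retinoblastoma family proteins are the brakes that keep a cell out of division, and the RNA of 10 genes that encode them was examined in quiescent muscle stem cells (qMuSCs) with and without type 2 deiodinase (D2). The 10 genes were taken by name from the 31053 genes of a table of raw read counts. They are the Cip/Kip inhibitors Cdkn1a, Cdkn1b and Cdkn1c, the INK4 inhibitors Cdkn2a, Cdkn2b, Cdkn2c and Cdkn2d, and the pocket proteins Rb1, Rbl1 and Rbl2. Dio2 encodes D2, an enzyme that raises active thyroid hormone within the cell by removing an iodine from its precursor. MuSCs were sorted from hindlimb muscles of resting, uninjured mice aged 3 to 4 months by the nuclear GFP that the Pax7 gene drives (Pax7-nGFP), so GFP marks cells in which Pax7 is or was on. All 6 mice carried 1 copy of Pax7nGFP, were homozygous for the floxed Dio2 allele and received tamoxifen. The 3 WT mice (c124, c129 and c130) had no Cre, and the 3 cD2KO mice (fl125, fl126 and fl128) carried Pax7-CreERT2 on 1 allele, which restricts recombination to cells that express Pax7. The Cre allele and the loss of Dio2 therefore cannot be told apart in this comparison.

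In quiescent cells, Cip/Kip proteins bind cyclin-CDK complexes and INK4 proteins bind CDK4 and CDK6, so the kinases do not phosphorylate the pocket proteins. Unphosphorylated pocket proteins hold E2F factors on the promoters of replication and mitosis genes and keep those genes silent, RBL1 and RBL2 within the DREAM complex. The p27 protein of Cdkn1b and the p57 protein of Cdkn1c are known for holding MuSCs and other adult stem cells at rest, and much of the control of CDK inhibitors acts on protein stability, which RNA counts do not show.

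None of the 8 genes with enough counts for a test differed between WT and cD2KO qMuSCs at an unadjusted p under 0.05 (edgeR quasi-likelihood test): 0 of 8 were higher and 0 of 8 lower. Among all 11633 genes tested, 12.0% passed that line, 5.34% higher and 6.62% lower in cD2KO, and the smallest Benjamini-Hochberg adjusted p of all genes was 0.0394. The median log2 fold change of the 8 genes was -0.044, beside -0.020 over all genes tested. Cdkn1a was the one inhibitor whose RNA was higher in each cD2KO mouse than in each WT mouse, and Rb1 the one tested gene that was lower in each. Such a complete separation of the groups was seen in 8.05% of all tested genes towards higher values and in 10% towards lower values. Cdkn2b and Rbl1 held too few counts to be tested.

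Libraries held between 2184073 and 3897787 counts, and 13985 to 15491 genes had at least 1 count in a mouse. Levels are given below as CPM, counts per 1000000 counts of the TMM-scaled library, where 3 counts, the limit that a count of 0 allows, correspond to 0.768 to 1.36 CPM depending on the mouse and cover counting error only. The targeted gene, Dio2, held 21, 5 and 10 counts in c124, c129 and c130, and 15, 5 and 1 counts in fl125, fl126 and fl128. At 6.79 CPM, Dio2 was highest in the library labelled fl125, beside 5.38 CPM in c124, so a loss was not seen in fl125. With a mean normalized count of 9.36 the gene was too low to be tested, and counts this small do not decide on the label. Counts over the whole gene also do not show whether the floxed part is present. The 14 MuSC markers, Pax7 among them, were all detected well enough to be tested, and their summed level was 1893 to 2420 CPM in WT and 2155 to 3405 CPM in cD2KO, with 3 of 14 higher by the test and 0 lower. RNA of other cell types was also present and differed in amount. Summed over 13 immune markers it was 4372 to 8025 CPM in WT and 219.6 to 2856 CPM in cD2KO, with fl125 the lowest, and all 13 had a log2 fold change below 0 (4 passed the test). Summed over 10 mural cell markers it was 5878 to 9989 CPM in WT and 11860 to 17600 CPM in cD2KO, with 5 of 10 higher by the test. Much of that sum was Acta2 (means 2658 and 5973 CPM) and Myh11 (2179 and 4347 CPM). The 5 mural markers not called had log2 fold changes near or below 0 or slightly above: Rgs5 0.0025, Pdgfrb -0.062, Cspg4 0.25, Kcnj8 -0.36 and Abcc9 -0.23. Of the other lists, 7 of 11 endothelial markers, 3 of 9 fibroadipogenic markers and 2 of 8 Schwann cell markers were lower. In addition, 1 of 10 muscle fibre markers was higher. The part of these cells in the levels reported here was not tested, and in bulk RNA fewer cells of a type cannot be told apart from less RNA per cell.

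**Figure D1:**
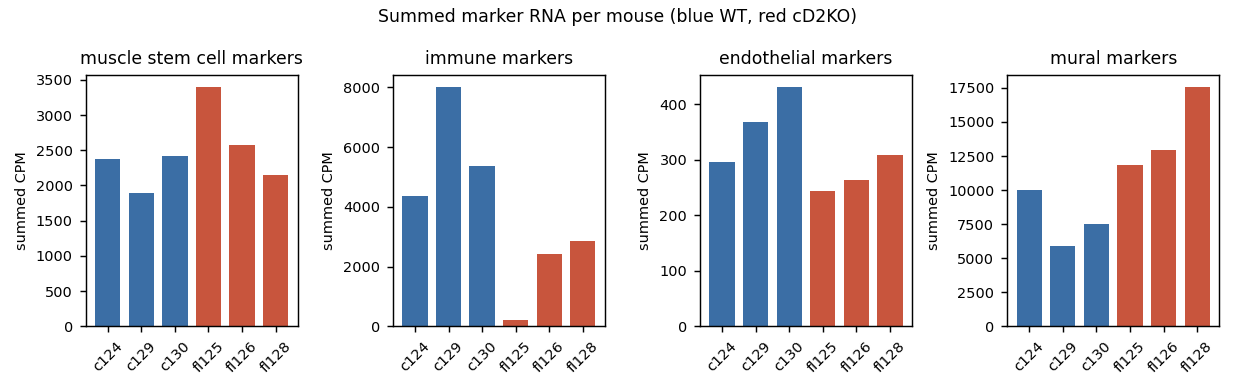
Summed CPM of the markers of MuSCs (14 genes), immune cells (13), endothelial cells (12) and mural cells (10) in each mouse, on linear axes that start at 0 and differ between panels. Blue bars are WT and red bars cD2KO, and the bar of the library labelled fl125 is the lowest of 6 for immune markers (219.6 CPM) and the highest for MuSC markers (3405 CPM).

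The Cip/Kip inhibitors dominated the family. Per kilobase of exon, Cdkn1a was first with a mean of 69.5 CPM per kb over the 6 mice, followed by Cdkn1c with 49.0 and Cdkn1b with 30.5, and the ranges of neighbours overlapped across mice. Cdkn1b, at 21.9 to 49.5 CPM per kb, stood above the next gene, Cdkn2d, in every mouse. Cdkn2d averaged 14.0 and Cdkn2c 8.73 CPM per kb, then Cdkn2a 3.23, Rbl2 2.80, Rb1 2.54, Cdkn2b 1.10 and Rbl1 0.297, each overlapping its neighbour. Whether reads covered whole transcripts is not given in the sources used here, and without the division by length several places changed. In CPM, Cdkn1b (138.7) came before Cdkn1c (99.9) and Cdkn2c (23.5) before Cdkn2d (22), while Rbl2 (21.2) and Rb1 (15.3) came before Cdkn2a (3.78) and Rbl1 (1.78) before Cdkn2b (1.53).

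Cdkn1a (ENSMUSG00000023067, chr17:29090976-29100727 on the plus strand of mm10, 3553 bases of exon) encodes p21, the inhibitor that p53 induces and that stops CDK2 at the entry into S phase. It stood at 239.2, 207.5 and 204.2 CPM in c124, c129 and c130 and at 263.6, 250 and 317.2 CPM in fl125, fl126 and fl128. The lowest cD2KO mouse was thus above the highest WT mouse, with fl128 farthest from the WT range. The means were 216.9 ± 19.3 and 276.9 ± 35.5 CPM (SD, n = 3 mice each). The log2 fold change was 0.35 (95% interval -0.059 to 0.76) with an edgeR p of 0.0876 and an adjusted p of 0.504, and the exact permutation p of 0.1 is the smallest that 3 mice against 3 can give. Without the library labelled fl125 the log2 fold change was 0.42 and passed the unadjusted line (adjusted p = 0.301, edgeR). Over all 11633 genes that fit called 934 higher, against 621 with all mice. Without fl128 the log2 fold change of Cdkn1a was 0.24 (unadjusted p = 0.261, edgeR). Of all 11633 genes tested, its level moved over the 6 mice most like that of Tnni1, a slow muscle troponin (Pearson r of log2 CPM = 0.991). Cfl2, a muscle cofilin (0.988), and Rab6b (0.986) followed, with n = 6 libraries that share these depths and the same groups. These genes were picked for the highest r, and with so many genes and 6 mice an unrelated gene can also reach a high r. Tnni1 ranged from 6.58 to 11 CPM in WT and from 11.3 to 23.9 CPM in cD2KO, and fl128 was the highest of 6 for it as for Cdkn1a. Summed mural marker RNA, much of it that of Acta2 and Myh11, also separated the groups and was highest in fl128 (17600 CPM). Summed muscle fibre marker RNA was highest in fl128 too (6680 CPM) but overlapped between the groups. The part of either in the Cdkn1a level was not tested.

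Cdkn1b (ENSMUSG00000003031, chr6:134920401-134925513, plus strand, 4552 bases of exon) encodes p27, which binds cyclin E and cyclin A complexes with CDK2 and is removed by the ubiquitin ligase of SKP2 and CKS1. Its levels were 137.8, 110.4 and 129.8 CPM in the WT mice and 225.5, 128.6 and 99.9 CPM in fl125, fl126 and fl128. The groups overlapped: fl125 lay far above all other mice, fl126 within the WT range and fl128 below it. The means were 126.0 ± 14.1 and 151.3 ± 65.8 CPM, and the log2 fold change of 0.26 (95% interval -0.32 to 0.83) had an adjusted p of 0.766 (edgeR). It rested on fl125, for without that library the cD2KO mean was 114.2 CPM and the log2 fold change -0.11 (95% interval -0.54 to 0.33). The genes whose log2 CPM moved most like that of Cdkn1b were Srfbp1 (r = 0.997), Chodl (0.992), which is a MuSC marker, and Map4k4 (0.985). They were again picked for the highest r of all 11633 genes tested, over 6 mice. Chodl stood at 830.4, 598.8 and 786.4 CPM in the WT mice and at 1364, 776.0 and 541.1 CPM in the cD2KO mice, which ranks the 6 mice in the order that Cdkn1b does. Since Chodl was picked by its r, this match is not separate from that choice. Pax7 was also highest in fl125 but higher in fl126 (452.1 CPM) than in c124 (408.4 CPM), and the MuSC marker Itga7 was highest in fl128 (367.4 CPM). The library labelled fl125 also had the highest summed MuSC marker RNA and the lowest summed immune marker RNA, as given above. Chodl itself (1364 CPM) and Pax7 (687.4 CPM) made up much of that MuSC sum of 3405 CPM, so the sum is not separate from the Chodl values. The part of MuSC and immune marker RNA in the Cdkn1b level of fl125 was not tested.

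Cdkn1c (ENSMUSG00000037664, chr7:143458339-143461050, minus strand, 2039 bases of exon) encodes p57 and is expressed from the maternal allele. It was at 86.6, 108.9 and 121.5 CPM in WT and at 100.5, 67.7 and 114.3 CPM in fl125, fl126 and fl128, so fl126 was below all other mice and the rest overlapped. The means were 105.6 ± 17.7 and 94.2 ± 23.9 CPM, with a log2 fold change of -0.16 (95% interval -0.66 to 0.33) and an adjusted p of 0.851 (edgeR). Leaving out fl126 gave 0.026. Over 30.7% of its exon bases the annotation also holds the antisense gene Gm44732, to which 1 count was assigned in all 6 mice. Its closest companions over the 6 mice, picked for the highest r of all 11633 genes tested, were Tomm70a (r = 0.987), D130020L05Rik (0.984) and Rfxap (0.980). An r picked in this way can be high in unrelated genes, and D130020L05Rik was low, at 1.03 to 6.92 CPM.

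**Figure D2:**
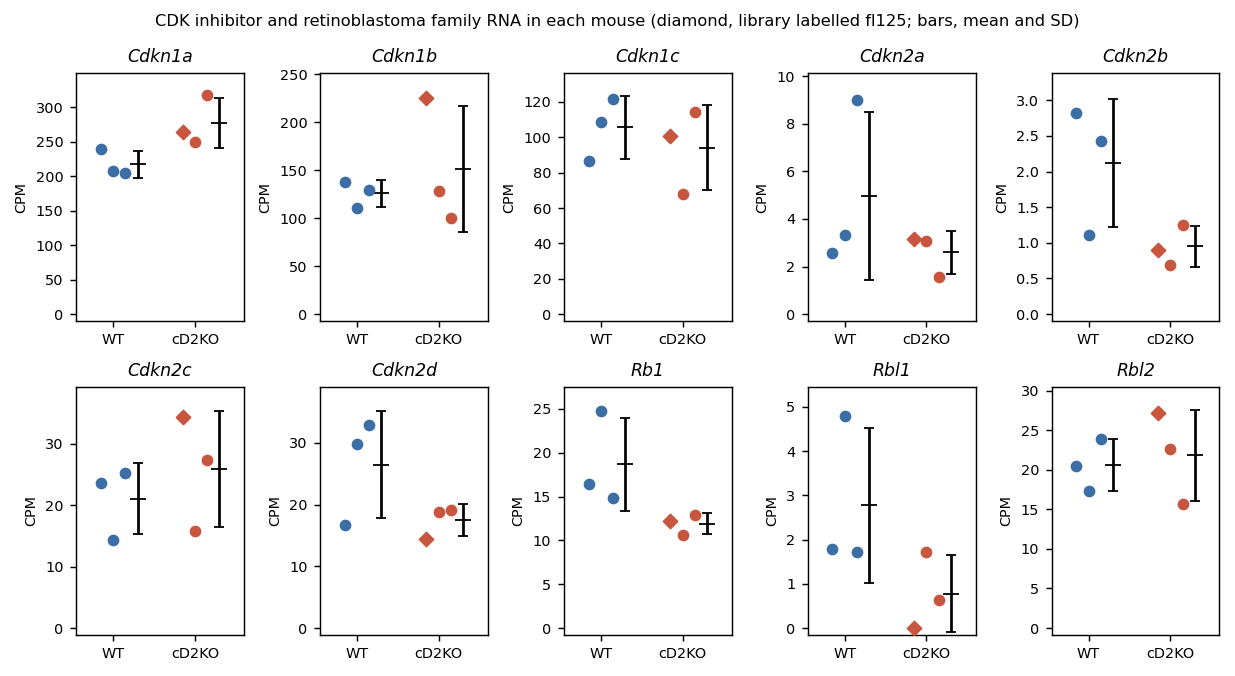
CPM (TMM-scaled, linear axes from 0, a scale of its own in each panel) of the 10 genes in the 3 WT mice (blue) and the 3 cD2KO mice (red). The red diamond is the library labelled fl125, and the black mark with its bar is the mean ± SD of 3 mice. The groups are apart for Cdkn1a (250 CPM and above in cD2KO), Rb1 (12.9 CPM and below in cD2KO) and Rbl1 (1.71 CPM and below in cD2KO).

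Together the Cip/Kip genes summed to 463.5, 426.8 and 455.5 CPM in WT and to 589.6, 446.3 and 531.3 CPM in cD2KO. The summed levels overlapped, at 448.6 ± 19.3 and 522.4 ± 72.1 CPM. Within a library, the share of Cdkn1a in the counts of these genes was 51.6%, 48.6% and 44.8% in WT and 44.7%, 56.0% and 59.7% in fl125, fl126 and fl128, so the cD2KO mice held both the lowest and the highest share. Cdkn1b took 25.9% to 29.7% of the counts in WT but 18.8% to 38.3% in cD2KO, a wider spread on both sides. Per kilobase, the summed level of Cip/Kip RNA over that of the D cyclins (Ccnd1, Ccnd2 and Ccnd3), which they meet as partners in G1, was 1.43 ± 0.0817 in WT and 1.37 ± 0.254 in cD2KO, a difference smaller than the spread between mice.

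The INK4 inhibitors were scarcer. Cdkn2a (ENSMUSG00000044303, chr4:89274471-89294653, minus strand, 1172 bases of exon) encodes both p16INK4a and the p53 activator ARF, which a count per gene cannot separate, and its silencing is a known condition of MuSC quiescence. It held 10, 9 and 26 counts in the WT mice and 7, 9 and 5 counts in fl125, fl126 and fl128, or 2.56, 3.32 and 9.0 CPM against 3.17, 3.08 and 1.57 CPM. Only c130 stood out, and the groups overlapped. The log2 fold change of -0.92 (95% interval -2.47 to 0.62, adjusted p = 0.676, edgeR) became -0.15 without c130.

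Cdkn2b (ENSMUSG00000073802, chr4:89306299-89311039, minus strand, 1390 bases of exon), the neighbour of Cdkn2a, encodes p15, an inhibitor known for its induction by TGF-β. It held 11, 3 and 7 counts in WT and 2, 2 and 4 counts in cD2KO, with a mean normalized count of 4.41, under the minimum of 10. In CPM this was 2.12 ± 0.895 and 0.949 ± 0.289, with fl128 above c129 (exact permutation p = 0.2, two-sided). Counts of this size do not resolve a difference.

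Cdkn2c (ENSMUSG00000028551, chr4:109660876-109667189, minus strand, 2686 bases of exon) encodes p18, and Cdkn2d (ENSMUSG00000096472, chr9:21288410-21291407, minus strand, 1574 bases of exon) encodes p19INK4d. Cdkn2c was at 23.6, 14.4 and 25.3 CPM in WT and at 34.4, 15.7 and 27.3 CPM in fl125, fl126 and fl128, with overlapping groups and fl125 the highest. Its log2 fold change was 0.28 (95% interval -0.46 to 1.03, adjusted p = 0.820, edgeR) and was 0.067 without fl125. Cdkn2d lay the other way, at 16.6, 29.9 and 32.9 CPM in WT and 14.5, 18.8 and 19.2 CPM in cD2KO. Here c124 alone lay within the cD2KO range. The means of Cdkn2d were 26.5 ± 8.64 and 17.5 ± 2.6 CPM, with a log2 fold change of -0.58 (95% interval -1.29 to 0.12) and an adjusted p of 0.517 (edgeR). Without c124 the value was -0.84 and past the unadjusted line, and without c130 it was -0.37.

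Summed over the INK4 genes, the levels were 54.6 ± 13.0 CPM in WT and 46.9 ± 7.64 CPM in cD2KO. Cdkn2c and Cdkn2d made up most of the INK4 counts in every mouse. The share of Cdkn2c was 51.7%, 29.6% and 36.3% in WT and 65.0%, 41.1% and 55.4% in cD2KO, and that of Cdkn2d 36.5%, 61.4% and 47.3% against 27.4%, 49.1% and 38.9%. Both shares overlapped between the groups, with differences of means of 14.6 and -9.94 percentage points. These depended on single mice: the Cdkn2c difference was 9.05 points without fl125, and the Cdkn2d difference was -3.45 without c129, -4.40 without fl125, -15.3 without fl126 and -15.9 without c124.

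**Figure D3:**
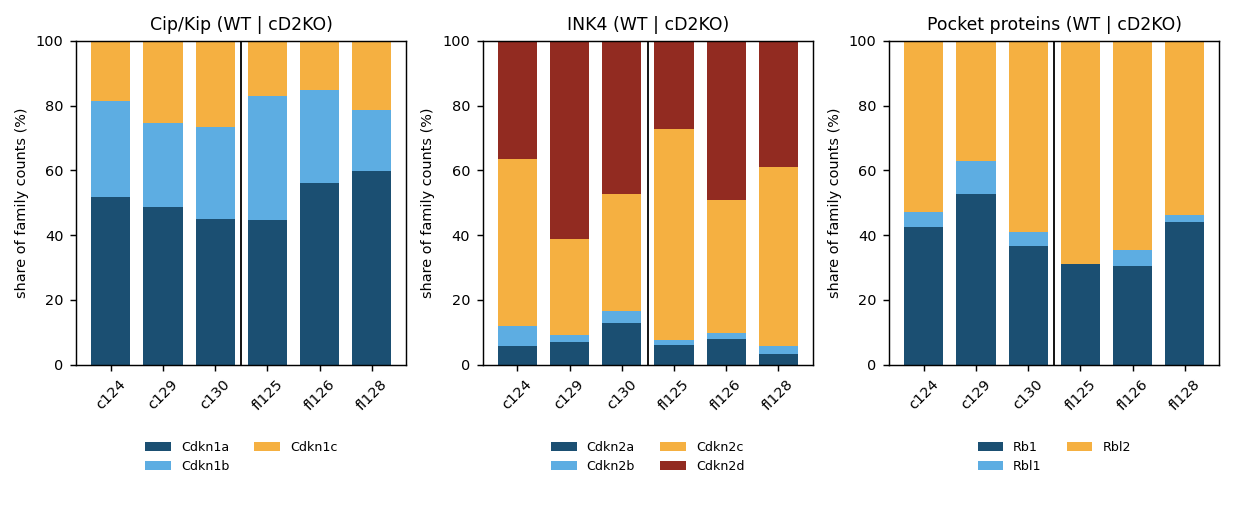
Share of each gene (percent, 0 to 100) in the summed counts of its family, Cip/Kip, INK4 or pocket proteins, in each mouse, with WT to the left of the vertical line and cD2KO to the right. Cdkn1b takes 38.3% of Cip/Kip counts in fl125 and 18.8% in fl128, and Rbl1 is absent from the pocket protein counts of fl125.

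Among the pocket proteins, Rb1 (ENSMUSG00000022105, chr14:73183673-73325822, minus strand, 6015 bases of exon) encodes the retinoblastoma protein, which holds the activating E2F factors. It held 64, 67 and 43 counts in WT and 27, 31 and 41 counts in fl125, fl126 and fl128, or 16.4, 24.7 and 14.9 CPM against 12.2, 10.6 and 12.9 CPM. Each cD2KO mouse was below each WT mouse, with fl128 and c130 close to each other and c129 far above. The means were 18.7 ± 5.31 and 11.9 ± 1.17 CPM, with a log2 fold change of -0.64 (95% interval -1.39 to 0.10), an edgeR p of 0.0847 and an adjusted p of 0.499, and the exact permutation p was again 0.1. It was -0.62 without the library labelled fl125 and -0.37 without c129. Rcbtb2 and Lpar6 lie on the opposite strand and share 8.11% and 6.78% of the Rb1 exon bases, and since the use of strand in counting is not given in the sources used here, reads in those stretches cannot be assigned. Rb1 is expressed in many cell types, and the part of the lower immune marker RNA of the same 3 mice in its level was not tested.

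Rbl1 (ENSMUSG00000027641, chr2:157145893-157204534, minus strand, 5993 bases of exon) encodes p107, a pocket protein whose gene is itself an E2F target and rises when cells enter the cycle. It was the scarcest gene of the family per kilobase. It held 7, 13 and 5 counts in WT and 0, 5 and 2 counts in cD2KO, or 1.79, 4.80 and 1.73 CPM against 0, 1.71 and 0.628 CPM. The 0 counts of fl125 allow a level of up to 1.36 CPM. The groups did not overlap (exact permutation p = 0.1, two-sided), but c130 at 1.73 and fl126 at 1.71 CPM rest on 5 counts each and are equal within counting error. With a mean normalized count of 5.10 the gene was not tested.

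The Rbl1 promoter is shown because, of the promoter windows of these genes, it alone holds the letters of an E2F site. The letters searched were TTTCGCGC or TTTGGCGC on both strands, in RefSeq windows (GRCm38.p6) from 250 bases before to 50 bases after a start site, and 0.813% of all 32851 windows held them at least once, with matches that overlap on both strands counted as 1 window. Of the 10 genes, 8 had windows there, 11 in all, while Cdkn1c and Rb1 had none and were not searched. Of the 11 windows, 1 held a match, 18 bases before the start site of Rbl1. The 250 bases before that start site (chr2:157204535-157204784, minus strand, 5′ to 3′) follow, with the match in capitals.
Rbl1: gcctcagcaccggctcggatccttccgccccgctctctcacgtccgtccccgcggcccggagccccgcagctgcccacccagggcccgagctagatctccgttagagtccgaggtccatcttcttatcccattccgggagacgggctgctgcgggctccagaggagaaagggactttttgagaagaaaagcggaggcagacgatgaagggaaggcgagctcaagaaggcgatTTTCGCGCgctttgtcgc

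The same letters occurred in 5 of the 21 windows (23.8%) of a list of RB-E2F target genes of dividing cells, and stretches of 28 bases around matches in that list are set beside Rbl1 for comparison, 5′ to 3′ in the direction of each gene with the match in capitals. They come from the replication licensing factor Cdt1 and from the MCM helicase subunits Mcm5, Mcm6 and Mcm7. The stretches of Mcm5 and Mcm6 each also hold an overlapping match on the other strand (GCGCCAAA and GCGCGAAA), which is only partly in capitals.
Rbl1, chr2:157204535-157204562: agaaggcgatTTTCGCGCgctttgtcgc
Cdt1, chr8:122568037-122568064: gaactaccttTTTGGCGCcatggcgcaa
Mcm5, chr8:75109346-75109373: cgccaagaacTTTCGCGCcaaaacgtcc
Mcm6, chr1:128359798-128359825: ggcgtatgctTTTGGCGCgaaaagtgcg
Mcm7, chr5:138171850-138171877: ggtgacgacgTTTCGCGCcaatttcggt

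These matches are letters in a window and say nothing of binding. Log2 fold changes of RNA, cD2KO over WT, were -0.66 for Cdt1 (adjusted p = 0.659, edgeR), -0.86 for Mcm5 (0.418), -0.70 for Mcm6 (0.443) and -0.42 for Mcm7 (0.479), of which Mcm5 alone passed the unadjusted line. Matches close to the edge of a window were left out of this comparison. The other tested genes of the surrounding lists with a match further inside lay on both sides of 0. They were Cdk1 at 0.48, Ezh2 at 0.43, Tfdp1 at -0.22, Cdc25a at -0.74 and Dtl at -1.28, of which Dtl passed. The letters TTTGAA, the CHR element that the DREAM complex uses, were in 2 of the 11 windows, those of Cdkn2b and Rbl2 (18.2%, beside 17.9% of all windows). AGGTCA, the half-site bound by thyroid hormone receptors, was in a window of Cdkn2a, 67 bases before the start site, and in one of Cdkn2c, 180 bases before it (18.2%, beside 16.3% of all windows), and GTAAACA, a FoxO site, in 0 of 11 (3.65% of all windows).

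Rbl2 (ENSMUSG00000031666, chr8:91070057-91123844, plus strand, 7558 bases of exon) encodes p130, the main pocket protein of resting cells. It stood at 20.5, 17.4 and 23.9 CPM in WT and at 27.2, 22.6 and 15.7 CPM in fl125, fl126 and fl128, with the cD2KO mice on both sides of the WT range. The log2 fold change was 0.076 (95% interval -0.60 to 0.75) with an adjusted p of 0.958 (edgeR), and -0.071 without the library labelled fl125. Aktip (9.17%) and Gm45464 (11.8%) share exon bases with it on the opposite strand.

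Rbl2 made up 53.0%, 37.0% and 59.0% of the pocket protein counts in WT and 69.0%, 64.7% and 53.8% in cD2KO, and Rb1 42.4%, 52.8% and 36.8% against 31.0%, 30.4% and 44.1%. Both shares overlapped between the groups. Per kilobase, the 3 genes summed to 5.73, 7.21 and 5.92 CPM in WT and to 5.63, 5.03 and 4.32 CPM in cD2KO, so that the groups did not overlap on this scale, though fl125 was near c124. Without the division by length the sums, 42.0 ± 4.32 and 34.5 ± 5.11 CPM, did overlap.

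**Figure D4:**
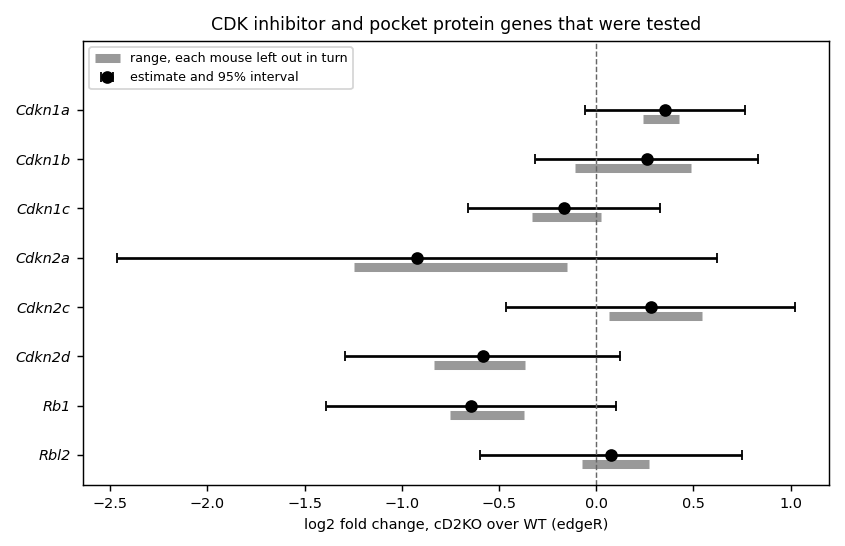
Log2 fold change (cD2KO over WT, edgeR) of the 8 tested genes, as point and 95% interval, with a grey bar for the range of values when each of the 6 mice was left out in turn. Every interval includes 0, and the grey bars of Cdkn1b (-0.11 to 0.49), Cdkn1c (-0.33 to 0.026) and Rbl2 (-0.071 to 0.27) cross 0.

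The genes around the inhibitors were described with 6 lists of 84 genes, of which 74 were tested, 3 were higher and 8 lower in cD2KO, beside the 5.34% higher and 6.62% lower among all genes tested. Their adjusted p were 0.248 or above (edgeR), and of the 10 called genes named by rule below, Cks1b alone passed the unadjusted line whichever of the 6 mice was left out. Among 13 tested genes of a list of cyclins, CDKs and their activators (Cdc25a and the kinase of Cdk7, Ccnh and Mnat1), 1 was higher and 0 lower, with a median log2 fold change of -0.13. The one was Ccnd2, a D cyclin that partners CDK4 and CDK6 and also takes up Cip/Kip proteins. It stood at 415.3, 365.1 and 470.7 CPM in WT and at 591.0, 545.8 and 578.1 CPM in cD2KO, apart in all mice, and rose by a log2 fold change of 0.45 (adjusted p = 0.377, edgeR). None of 8 tested E2F and DP factors and none of 7 tested MuvB and DREAM genes, the partners of the pocket proteins, passed the test, with medians of -0.11 and -0.39.

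Of 12 ubiquitin ligase genes that act on CDK inhibitors, 0 were higher and 3 lower, with a median log2 fold change of 0.043. Cks1b, the cofactor with which SKP2 recognizes p27, was at 20.7, 18.5 and 23.5 CPM in WT and at 12.7, 10.6 and 9.11 CPM in cD2KO. All cD2KO mice were below all WT mice, and Cks1b fell by 0.96 on the log2 scale (adjusted p = 0.248, edgeR). Dtl, which directs p21 to the CRL4 ligase during S phase, fell by 1.28 (adjusted p = 0.375, edgeR) and Cdc20, which activates the anaphase-promoting complex, by 1.25 (adjusted p = 0.40, edgeR), both at under 20 CPM in every mouse. The Cdc20 log2 fold change was -0.77 without c124. Skp2 itself was at 5.27 ± 0.828 and 6.78 ± 3.37 CPM (log2 fold change 0.34, adjusted p = 0.879, edgeR). Of 15 tested upstream regulators, 2 were higher and 0 lower, with a median of 0.14: Smad4, the common mediator of TGF-β signals, by 0.60 (adjusted p = 0.377, edgeR) and Foxo4, a FoxO factor of the kind that induces Cdkn1b, by 0.45 (adjusted p = 0.396, edgeR). The Smad4 levels overlapped between the groups, with fl125 at 125.9 CPM and WT mice at up to 141.4 CPM, and without fl128 the log2 fold changes were 0.31 for Smad4 and 0.28 for Foxo4. Trp53, the inducer of Cdkn1a, averaged 6.39 ± 1.80 CPM in WT mice and 6.49 ± 0.307 CPM in cD2KO mice.

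The list of RB-E2F target genes stands at the far end of the pathway, where pocket proteins act. Of 19 tested, 0 were higher and 5 lower, 17 had a log2 fold change below 0, and the median was -0.47. Among all 11633 genes tested, 6.62% were lower, 6038 had a log2 fold change below 0, and the median was -0.020. Birc5, which encodes survivin, was at 11.8, 12.6 and 19.4 CPM in WT and 6.34, 6.16 and 6.60 CPM in cD2KO, and fell by 1.19 on the log2 scale (adjusted p = 0.253, edgeR). Mcm4, an MCM helicase subunit, fell by 1.20 (adjusted p = 0.314, edgeR), Top2a, the topoisomerase of dividing cells, by 0.65 (adjusted p = 0.322, edgeR) and Mki67, the marker Ki-67, by 0.74 (adjusted p = 0.40, edgeR). The fifth was Mcm5 with the value given above, named after its value was seen. All 5 separated the groups, but they had been picked by their p, and 10% of all tested genes separated the groups towards lower values. Top2a was the highest of them, at 40.7 to 50.6 CPM in WT and 24.9 to 35.2 CPM in cD2KO. Division genes are transcribed in any dividing cell of a library, and the immune marker RNA was lower in the same 3 mice, from 219.6 to 2856 CPM against 4372 to 8025 CPM. Its part in these values was not tested. Without the library labelled fl125, which has the least immune RNA, 4 genes of the 6 lists were higher and 4 lower, while over all 11633 genes the calls were 934 higher and 866 lower, against 621 and 770 with all mice.

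**Figure D5:**
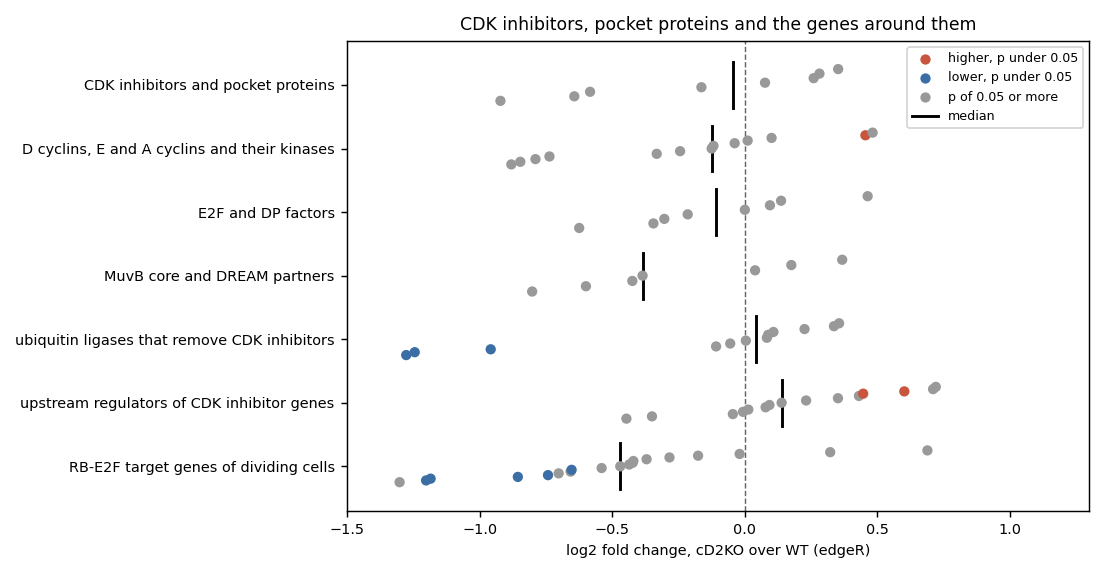
Log2 fold changes (cD2KO over WT, edgeR) of the tested CDK inhibitors and pocket proteins and of the 6 surrounding lists, 1 point per gene, spread vertically in order of value. Red and blue points passed the test at an unadjusted p under 0.05, grey points did not, and black marks are list medians (from -0.47 for RB-E2F target genes to 0.14 for upstream regulators).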

How the data were processed

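RNA of sorted qMuSCs from 3 WT and 3 cD2KO mice was analysed, 1 library per mouse, so errors and p-values are between mice. RNA had been isolated on RNeasy Mini columns, and the table the authors deposited holds unnormalized read counts for each gene. The submitters' processing notes name bcl2fastq, STAR 2.6.0a, HTSeq 0.9.1 and mm10. Gene models, strand setting and PCR duplicate removal are not given in the sources used here.

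Genes whose DESeq2-normalized count averaged above 10 were kept. TMM-scaled counts were tested with edgeR 4.0.16 (robust quasi-likelihood, no covariate) in R 4.3.3, with the Benjamini-Hochberg adjustment made across the tested genes. A gene was called at an unadjusted p under 0.05. Alternatives used DESeq2 1.42.0 and limma 3.58.1. Coordinates, symbols and exon lengths came from GENCODE M21 (31011 of 31053 identifiers found), and promoters from RefSeq. The fit was tested on simulated data. The 10 genes, the lists and the tests were chosen with earlier results of these data known. Named were all 10 genes, Dio2, up to 4 called genes per list and direction by smallest p, and the 3 genes most correlated with each of the 3 most abundant genes. Skp2, Trp53 and the genes with E2F letters were named after their values were seen. Protein sequences were not analysed here.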

Additional observations from a re-analysis of the deposited data

How the results depend on the processing

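None of the 8 tested genes was called under the DESeq2 Wald test, limma voom, DESeq2 size factors, no minimum on expression, edgeR filterByExpr (which left out Cdkn2a, so 7 were tested) or, chosen after seeing the data, scaling to the total count. Cdkn2b and Rbl1 were also fitted under DESeq2 and with no minimum on expression, and were not called there. When each mouse was left out in turn, the number of these genes called higher ranged from 0 to 1 (Cdkn1a, without fl125) and the number called lower from 0 to 1 (Cdkn2d, without c124). With a mouse left out, the log2 fold change ranged from -0.11 (without fl125) to 0.49 for Cdkn1b, from -0.33 to 0.026 (without fl126) for Cdkn1c, and from -0.071 (without fl125) to 0.27 for Rbl2, which also turned below 0, to -0.0082, without c129. Over the 6 surrounding lists, the number of genes called higher (3) became 0 under scaling to the total count and 0 to 4 with a mouse left out. The number called lower (8) became 5 under DESeq2, 12 under scaling to the total count, which over all genes gave 445 higher and 945 lower calls in place of 621 and 770, and 2 to 7 with a mouse left out, with 2 without c130 and 2 without fl128. Ccnd2 lost its call in 4, Smad4 in 4, Foxo4 in 5, Cdc20 in 5, Dtl in 4, Top2a in 4, Mcm4 in 2, Birc5 in 1 and Mki67 in 6 of the 6 fits that leave out a mouse, and Cks1b in 0. Calls were also lost for Mki67 under DESeq2, DESeq2 size factors and no minimum, for Cdc20 under DESeq2 and voom, for Dtl under voom, and for Ccnd2, Smad4 and Foxo4 under scaling to the total count. With 3 mice a group and 2184073 to 3897787 counts a library, Cdkn2b and Rbl1, at 0 to 13 counts per mouse, were too low for the main test, and Cdkn2a, at 5 to 26 counts, has a wide interval. No paired analysis was possible because the mice share no labelled replicate, litter or batch across groups.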
